A study of Mus musculus with 34 samples.

Results

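*Nnt*, *Wdfy1* and *Entpd4* are 3 of the 16389 genes in the deposited table, and they were taken from it by symbol. They were chosen for their measured levels: *Nnt* and *Wdfy1* belong to a gene signature that the study drew from its transplanted mice against untreated mice, and *Entpd4* was added with earlier results of these data known. Both contrasts against untreated mice are therefore described below without a test, and tests are kept for GFP-BM REPOP against GFP-BM CON, for differences between regions, and for the agreement of regions taken from the same animal. All 3 genes passed the filter on low values (an FPKM of at least 1 in at least 3 libraries), together with 14710 tested genes in all.

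*Nnt* encodes the nicotinamide nucleotide transhydrogenase of the inner mitochondrial membrane, which uses the proton gradient to make NADPH for the handling of peroxides. *Wdfy1* encodes a FYVE and WD-repeat protein of early endosomes that recruits the adaptor of TLR3 and TLR4. *Entpd4* encodes a nucleoside diphosphatase of the Golgi and lysosomal membranes that cleaves UDP. *Nnt* is known as a gene at which C57BL/6 substrains differ, because C57BL/6J mice carry a deletion of several internal exons, and *Wdfy1* and *Entpd4* are listed here as candidates of the same kind. No genotype was measured in these mice, and a part of genotype in any value below was not tested.

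RNA was sequenced from 34 libraries of 12 mice labelled C57BL/6, with no substrain or age in the labels. The methods name The Jackson Laboratory as the source of all mice, with a stock number for the C57BL/6 mice and another for the marrow donors. WT CON mice were neither irradiated nor transplanted and gave 3 cortex, 4 hippocampus and 4 thalamus libraries. GFP-BM CON mice received 1000 cGy of whole-body irradiation and marrow from CAG-EGFP donors, in which a ubiquitous promoter drives GFP, and gave 4, 4 and 3 libraries. GFP-BM REPOP mice were irradiated and transplanted in the same way and, 3.5 months later, were given chow with 600 ppm of PLX3397, a CSF1R inhibitor that removes microglia, over 14 days, and then recovered for 6 months; they gave 4 libraries per region. Irradiation and donor marrow always went together, so they cannot be told apart here. Thalamus was dissected with the striatum. These were pieces of whole tissue, so fewer cells of a type and less RNA per cell cannot be told apart.

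The number in each label was read as the number of a mouse, and *Xist* and *Kdm5d* bear on that reading and on the sex given in the methods, which is male. In 11 of 12 mice, every library had *Xist* at 2.51 FPKM or more and *Kdm5d* at 0 or under 0.01 FPKM. Mouse 18 of the GFP-BM CON group was the exception in each of its 3 libraries, with *Kdm5d* between 3.42 and 5.56 FPKM and *Xist* at no more than 0.412 FPKM. Values of *Entpd4*, for which mouse 18 stood apart, are given with and without it. Base composition moved with the groups. The GC measure of a library, the median log2 level of the 10% of genes richest in GC minus that of the 10% poorest in GC, was 3.41 in hippocampus of mouse 33 and 3.65 in thalamus of mouse 34, and at most 2.68 in every other library. Its group means in WT CON, GFP-BM CON and then GFP-BM REPOP were 0.97, 0.52 and 0.66 in cortex, 2.62, 1.38 and 1.97 in hippocampus, and 2.11, 0.65 and 0.70 in thalamus. WT CON and GFP-BM CON libraries did not overlap in this measure in cortex (0.78 to 1.28 against 0.41 to 0.62) or thalamus (1.17 to 3.65 against 0.47 to 0.85). They overlapped in hippocampus (1.83 to 3.41 against 0.71 to 2.09). GFP-BM REPOP libraries overlapped with WT CON in cortex (0.46 to 1.0) and hippocampus (1.49 to 2.66) and not in thalamus (0.51 to 0.98). The mean of the measure was below that of WT CON in every contrast against WT CON.

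The sequences that matter for reading these values are the *Nnt* exon junction at which the reference is itself deleted, and the start of the reading frame that *Entpd4* shares with a copy. *Nnt* (Entrez 18115) lies at chr13:119335448-119408997 on the minus strand of GRCm38, the assembly that mm10 denotes. Its longest GENCODE transcript has 17 exons. Exon 6 (chr13:119386579-119386667) and exon 7 (chr13:119381676-119381863) are separated by an intron of 4715 bases. The 60 coding bases across this junction are printed with exon 7 in capitals:
Nnt exons 6 and 7: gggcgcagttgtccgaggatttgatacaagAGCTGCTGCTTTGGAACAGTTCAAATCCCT
Because the reference comes from C57BL/6J, reads from exons absent from it have no annotated place, and the *Nnt* values count the remaining exons. *Wdfy1* (Entrez 69368) lies at chr1:79702262-79776143 on the minus strand, with 12 exons. *Entpd4* (Entrez 67464) lies at chr14:69337174-69367270 on the plus strand, and *Entpd4b* (Entrez 100862375) at chr14:69555424-69585520 on the same strand. Their longest transcripts, each of 3589 bases and 13 exons, had 0 differing positions. The first 60 coding bases of each are printed with the start codon in capitals:
Entpd4: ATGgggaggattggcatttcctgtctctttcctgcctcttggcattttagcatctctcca
Entpd4b: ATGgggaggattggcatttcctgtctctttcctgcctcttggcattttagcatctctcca
Reads in these exons cannot be assigned to one copy by sequence, so the *Entpd4* value is uncertain as to the copy it came from.

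*Nnt* was higher in every transplanted library than in every WT CON library of its region. In cortex, the WT CON mice had 6.21, 5.40 and 6.13 FPKM, the GFP-BM CON mice 8.88, 8.58, 9.26 and 9.38 FPKM, and the GFP-BM REPOP mice 9.80, 8.70, 10.53 and 10.39 FPKM. In hippocampus, the values were 7.12, 5.71, 4.95 and 5.73 FPKM in WT CON, 7.958, 8.232, 9.002 and 10.06 FPKM in GFP-BM CON, and 10.04, 8.25, 10.18 and 10.11 FPKM in GFP-BM REPOP. In thalamus, they were 5.65, 6.63, 5.14 and 4.69 FPKM in WT CON, 8.107, 8.388 and 7.502 FPKM in GFP-BM CON, and 10.41, 8.75, 10.93 and 10.59 FPKM in GFP-BM REPOP. The lowest GFP-BM REPOP value of *Nnt* came from mouse 2 in all 3 regions. The group means were 5.91 ± 0.447 (SD, n = 3), 9.03 ± 0.366 (n = 4) and 9.86 ± 0.833 FPKM (n = 4) in cortex, and the log2 fold change against WT CON was 0.60 ± 0.08 (SE) in GFP-BM CON and 0.73 ± 0.08 in GFP-BM REPOP. These fold changes were 0.58 ± 0.14 and 0.71 ± 0.14 in hippocampus and 0.53 ± 0.13 and 0.87 ± 0.12 in thalamus.

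*Wdfy1* showed the largest rise of the 3 genes. In cortex, the WT CON mice had 6.84, 6.77 and 6.51 FPKM, the GFP-BM CON mice 11.47, 12.83, 13.06 and 16.82 FPKM, and the GFP-BM REPOP mice 15.18, 10.91, 18.64 and 18.34 FPKM. In hippocampus, the values were 4.33, 8.17, 8.26 and 6.38 FPKM in WT CON, 10.75, 12.42, 11.30 and 17.32 FPKM in GFP-BM CON, and 19.02, 12.25, 16.16 and 17.99 FPKM in GFP-BM REPOP. In thalamus, they were 7.03, 3.53, 6.83 and 6.56 FPKM in WT CON, 13.61, 14.41 and 20.17 FPKM in GFP-BM CON, and 20.86, 14.71, 21.58 and 17.92 FPKM in GFP-BM REPOP. Transplanted and WT CON libraries of a region did not overlap. The highest GFP-BM CON value came from mouse 9 in each region, and the lowest GFP-BM REPOP value from mouse 2. The log2 fold changes of *Wdfy1* against WT CON were 0.99 ± 0.17 (SE) in GFP-BM CON and 1.19 ± 0.17 in GFP-BM REPOP in cortex, 0.94 ± 0.22 and 1.28 ± 0.22 in hippocampus, and 1.44 ± 0.25 and 1.67 ± 0.23 in thalamus. The lowest WT CON values, 4.33 and 3.53 FPKM, were those of the pair of libraries with the highest GC measure. Without them the *Wdfy1* fold change in GFP-BM CON was 0.74 in hippocampus and 1.20 in thalamus.

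*Entpd4* lay below WT CON in every GFP-BM REPOP library and was split among the GFP-BM CON mice. In cortex, the WT CON mice had 47.55, 47.68 and 46.79 FPKM, the GFP-BM CON mice 42.60, 34.16, 32.43 and 23.25 FPKM, and the GFP-BM REPOP mice 22.41, 33.49, 25.75 and 25.88 FPKM. In hippocampus, the values were 55.29, 43.44, 45.03 and 54.03 FPKM in WT CON, 46.99, 31.38, 28.52 and 24.74 FPKM in GFP-BM CON, and 27.02, 29.70, 26.87 and 24.77 FPKM in GFP-BM REPOP. In thalamus, they were 46.94, 68.90, 53.59 and 45.56 FPKM in WT CON, 46.95, 36.86 and 24.68 FPKM in GFP-BM CON, and 23.72, 34.37, 21.26 and 23.51 FPKM in GFP-BM REPOP. Mouse 18 had the highest GFP-BM CON value in all 3 regions and lay within the WT CON range in hippocampus and thalamus, and mouse 9 had the lowest. The log2 fold change of *Entpd4* against WT CON was -0.55 ± 0.17 (SE) in GFP-BM CON and -0.83 ± 0.17 in GFP-BM REPOP in cortex, -0.62 ± 0.17 and -0.86 ± 0.17 in hippocampus, and -0.60 ± 0.23 and -1.07 ± 0.22 in thalamus. Leaving out mouse 18 moved the GFP-BM CON change to -0.68 in cortex, -0.81 in hippocampus and -0.81 in thalamus, and leaving out mouse 9 moved it to -0.39 in cortex and -0.35 in thalamus. The WT CON libraries with the highest GC measure held the highest *Entpd4* values, 55.29 and 68.90 FPKM, and without them the GFP-BM CON change was -0.56 in hippocampus and -0.47 in thalamus. Changes after a GC and length correction are given with the processing below, and the part of base composition was not tested otherwise. *Entpd4b* had a like order of group means, with means of 66.6 ± 0.9 (SD, n = 3), 46.8 ± 12.5 (n = 4) and 36.7 ± 8.27 FPKM (n = 4) in WT CON cortex and that of the control and repopulated transplanted mice.

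**Figure D1:**
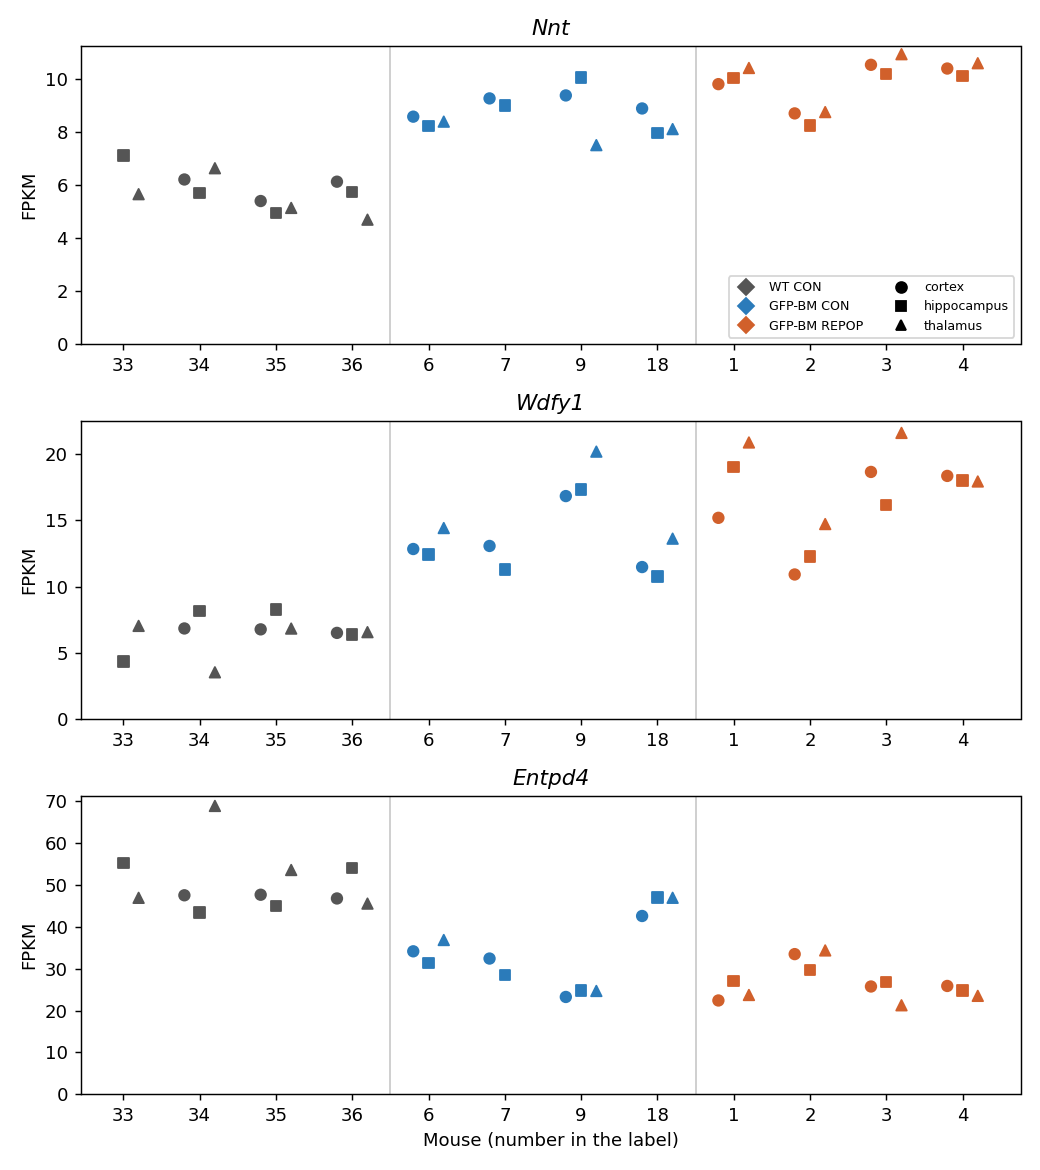
FPKM (vertical axis, from 0) of *Nnt*, *Wdfy1* and *Entpd4* in each library, by mouse (horizontal axis, number in the label), with the group as colour and the region as marker shape. *Nnt* and *Wdfy1* lie higher in all transplanted mice, and *Entpd4* of mouse 18 lies beside the WT CON mice at 42.60 to 46.99 FPKM.

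All 3 genes had no overlap of GFP-BM REPOP with WT CON in cortex, hippocampus and thalamus, where 9.48%, 4.0% and 18.8% of all tested genes had none. Between GFP-BM CON and WT CON, 3 of the 3 were without overlap in cortex, 2 in hippocampus and 2 in thalamus, beside 16.0%, 13.7% and 23.1% of tested genes. The genes were chosen from contrasts against WT CON, so nothing is read from these counts.

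The distance from WT CON was in part present after transplant alone. In linear FPKM, the GFP-BM CON mean of *Nnt* had covered 79.0% of the change seen in GFP-BM REPOP in cortex, 77.9% in hippocampus and 53.2% in thalamus. *Wdfy1* had covered 75.5%, 64.4% and 78.8% of it in the same regions. For *Entpd4*, whose change was a fall, the share was 69.5%, 74.0% and 62.7%. The *Entpd4* shares rested on single mice: they were 85%, 95% and 82% without mouse 18 and 53.5%, 61.8% and 42.2% without mouse 9. The shares of *Wdfy1* were 63.4%, 49.2% and 62.8% without mouse 9 and 83.1%, 72.0% and 88.4% without mouse 18. Those of *Nnt* were 76.0%, 66.9% and 58.6% without mouse 9 and 80.2%, 85.5% and 52.0% without mouse 18. Both changes are measured from the same WT CON libraries, and these shares carry no test.

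Whether repopulation added to the change was tested by GFP-BM REPOP against GFP-BM CON, with limma-trend and Benjamini-Hochberg adjustment over 14710 genes. *Nnt* differed by 0.12 on the log2 scale in cortex (95% interval -0.04 to 0.28), by 0.13 in hippocampus (-0.17 to 0.43) and by 0.34 in thalamus (0.05 to 0.63). *Wdfy1* differed by 0.20 (-0.14 to 0.54), 0.34 (-0.15 to 0.83) and 0.23 (-0.32 to 0.78). *Entpd4* differed by -0.28 (-0.63 to 0.06), -0.24 (-0.61 to 0.13) and -0.47 (-0.98 to 0.05). None of the 3 genes passed an adjusted p of 0.05 in limma-trend, with adjusted p-values of 1.0 for all 3 in cortex and in thalamus and of 0.70, 0.54 and 0.57 for *Nnt*, *Wdfy1* and *Entpd4* in hippocampus. At an unadjusted p under 0.05 the count was 0 in cortex and hippocampus and 1, *Nnt*, in thalamus, and voom on recovered reads called 0 of them. Over all tested genes, limma-trend called 0.0476% in cortex, 0.0272% in hippocampus and 0.0% in thalamus, where 139 genes had an unadjusted p under 0.05 and voom also called 0. The 9 differences had the sign of the change against WT CON, which comparisons sharing the GFP-BM REPOP mice do not show independently. In thalamus, *Nnt* had no overlap between its GFP-BM CON values, up to 8.39 FPKM, and its GFP-BM REPOP values, from 8.75 FPKM. Counts of genes without overlap were 0 of 3 in cortex, 0 in hippocampus and 1 in thalamus, beside 3.09%, 6.88% and 4.56% of tested genes. The *Entpd4* difference was -0.15, -0.05 and -0.25 in cortex, hippocampus and thalamus without mouse 18, and -0.44, -0.36 and -0.72 without mouse 9. The *Wdfy1* difference ran from 0.11 to 0.37 in cortex, from 0.26 to 0.49 in hippocampus and from 0.12 to 0.40 in thalamus when 1 library was left out.

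**Figure D2:**
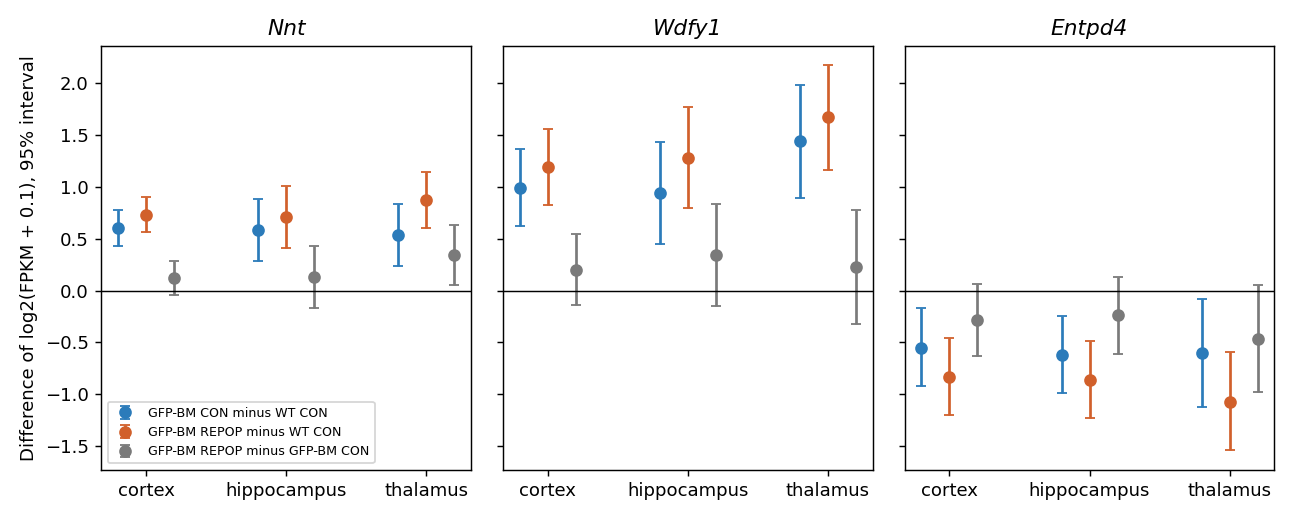
Difference of log2(FPKM + 0.1) between groups (vertical axis) with its 95% interval from limma-trend, for *Nnt*, *Wdfy1* and *Entpd4* in 3 regions. Intervals of GFP-BM REPOP minus GFP-BM CON (grey) include 0 for all but *Nnt* in thalamus (0.05 to 0.63, adjusted p = 1.0 in limma-trend), and differences from WT CON (blue and orange) are shown without a test.

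The repopulation difference, GFP-BM REPOP minus GFP-BM CON, was compared between regions in a limma fit of all 9 groups with the mouse as a random block. None of the 9 contrasts of the 3 genes passed: the largest were -0.23 for *Entpd4* (thalamus minus hippocampus, 95% interval -0.85 to 0.39) and 0.22 for *Nnt* (thalamus minus cortex, -0.12 to 0.56), and 0 had an unadjusted p under 0.05. The shares of tested genes called were 0.177% for hippocampus minus cortex, 0.0% for thalamus minus cortex, with 30 genes at an unadjusted p under 0.05, and 0.0272% for thalamus minus hippocampus.

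No region difference of the 3 genes passed the test. Within WT CON, limma called 0 of 3 genes for hippocampus minus cortex, thalamus minus cortex and thalamus minus hippocampus, where 36.9%, 30.0% and 17.7% of tested genes passed. Within transplanted mice it called 0 of 3 for the same differences, where 39.3%, 29.1% and 42.5% passed, and no member had an unadjusted p under 0.05 in any of these 6 contrasts. The correlation within mice in that fit, estimated over all genes, was -0.0384, so it scarcely pairs the regions of a mouse. With the mouse as a fixed block, chosen after the data were seen, 0 members passed or had an unadjusted p under 0.05 in limma-trend. *Wdfy1* had the largest difference, 0.26 on the log2 scale (95% interval -0.09 to 0.60) for thalamus minus hippocampus in transplanted mice. Compared within mice, *Wdfy1* was higher in thalamus than in hippocampus in 6 of 7 transplanted mice, by 0.22 ± 0.05 (SE) on the log2 scale, with an exact sign-flip permutation p of 0.031, two-sided. It was higher in thalamus than in cortex in 6 of 7 as well, by 0.25 ± 0.06, with an exact sign-flip permutation p of 0.031. These were the lowest p-values of 18 such tests, and adjusted over them the exact sign-flip permutation p was 0.28 for each. Neither difference passed over all genes in limma-trend with the fixed block (adjusted p = 0.16 and 0.23). The order of the mean levels was *Entpd4*, then *Wdfy1*, then *Nnt* in every group and region on the FPKM scale, which is per length.

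Levels of one mouse were compared across its regions. Of the variance of log2 values within groups, the share lying between mice was 64.0% for *Nnt*, 56.2% for *Wdfy1* and 78.2% for *Entpd4*, against a median of 31.8% over tested genes. Shares at least as high were held by 1.71%, 4.53% and 0.442% of tested genes. Without mouse 18 the *Entpd4* share was 63.5%. Without mouse 9 the share was 62.8% for *Entpd4*, 44.2% for *Wdfy1* and 71.9% for *Nnt*, against a median of 30.5%. Only GFP-BM CON mice were left out for these shares. Agreement of regions was tested by the correlation across mice of the deviations from the group means, with an exact permutation of mice within groups, two-sided, over a family of 9 tests. Hippocampus libraries differed in region markers, as given above, and the part of dissection in the agreement was not tested. For *Nnt* in cortex and hippocampus of 11 mice, Pearson's r was 0.88 (exact permutation p = 0.0041, adjusted p = 0.036) and Spearman's rho 0.89 (p = 0.0029, adjusted p = 0.026), and r was 0.68 without the 2 mice farthest from the median. That was the single pair of the 9 that passed, and its adjusted p rose above 0.05 in 8 of 12 analyses that left out 1 mouse, with a highest value of 0.15. For *Wdfy1* in the same regions, r was 0.78 (exact permutation p = 0.032, adjusted p = 0.095) and rho 0.82 (p = 0.022, adjusted p = 0.066), and r fell to -0.02 without the 2 farthest mice, so the relation rests on them. For *Entpd4* in cortex and thalamus of 10 mice, r was 0.85 (exact permutation p = 0.022, adjusted p = 0.095), rho was 0.84 (p = 0.02, adjusted p = 0.066), and r was 0.68 without the 2 farthest. Without mouse 18, r for *Entpd4* was 0.78 in these regions (exact permutation, adjusted p = 0.19), 0.63 for cortex and hippocampus and 0.13 for hippocampus and thalamus. For cortex and thalamus, r was 0.48 for *Nnt* (exact permutation, adjusted p = 0.41) and 0.50 for *Wdfy1* (adjusted p = 0.12). Without the 2 farthest mice these were -0.05 and -0.15. For *Entpd4* in cortex and hippocampus, r was 0.78 (exact permutation, adjusted p = 0.11), rho was 0.45 (p = 0.23), and r was 0.38 without the 2 farthest. The median r over tested genes was -0.05 for cortex and hippocampus and 0.01 for cortex and thalamus.

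Hippocampus and thalamus agreed least. Pearson's r between them over 11 mice was 0.28 for *Nnt* (exact permutation p = 0.52, adjusted p = 0.58; rho 0.33, p = 0.41), 0.06 for *Wdfy1* (p = 0.92, adjusted p = 0.92; rho 0.26, p = 0.53) and 0.50 for *Entpd4* (p = 0.32, adjusted p = 0.41; rho 0.21, p = 0.64). Both WT CON libraries with a high GC measure enter this pair of regions. Among the 7 transplanted mice with both regions, a choice made after the data were seen, r was 0.36 for *Nnt*, 0.88 for *Wdfy1* and 0.85 for *Entpd4*, with exact permutation p-values of 0.42, 0.042 and 0.062 and adjusted p-values of 0.42, 0.065 and 0.08. Without the 2 mice farthest from the median these were -0.89, -0.07 and 0.77, so those of *Nnt* and *Wdfy1* rest on them.

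**Figure D3:**
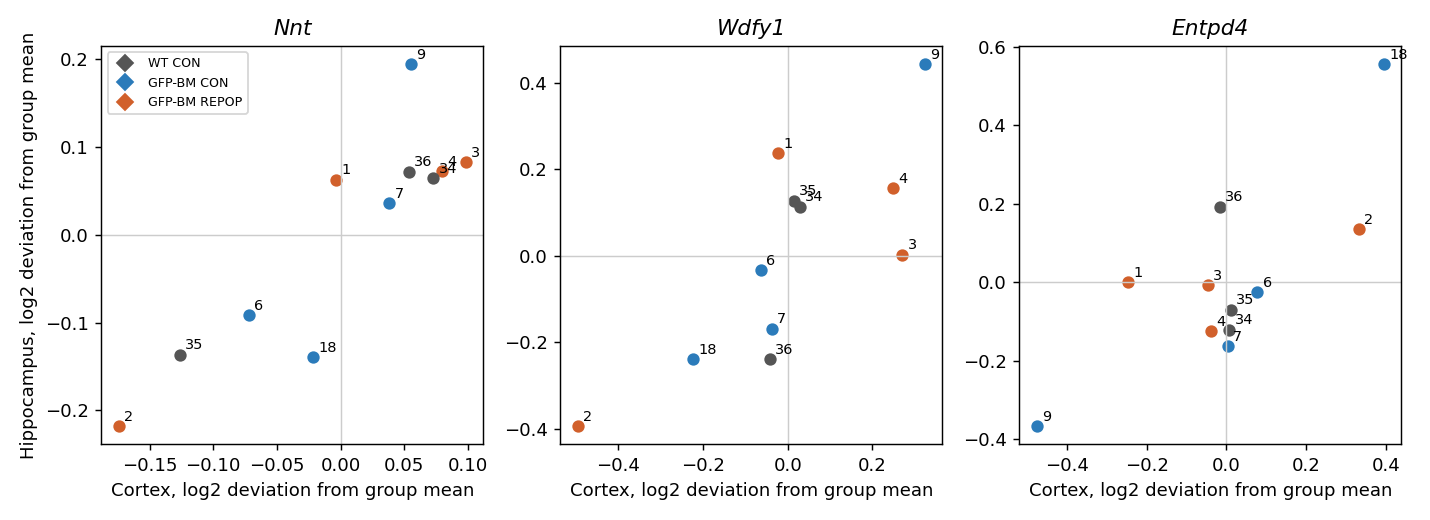
Deviation from the group mean in hippocampus (vertical axis) against that in cortex (horizontal axis), both in log2(FPKM + 0.1), for 11 mice labelled by number and coloured by group. Mouse 2 lies lowest for *Nnt* and *Wdfy1* in both regions, and mice 9 and 18 lie at opposite ends for *Entpd4*.

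For *Wdfy1* and *Entpd4*, some mice lay nearer to the other transplanted group than to their own. Mouse 9 received no inhibitor and had *Wdfy1* between 16.8 and 20.2 FPKM and *Entpd4* between 23.3 and 24.7 FPKM, inside the ranges that GFP-BM REPOP mice 1, 3 and 4 spanned over their regions. Mouse 2 received the inhibitor and had *Wdfy1* between 10.9 and 14.7 FPKM and *Entpd4* between 29.7 and 34.4 FPKM, near mouse 6 of the GFP-BM CON group, with 12.4 to 14.4 and 31.4 to 36.9 FPKM. *Nnt* went the same way in cortex and hippocampus. Mouse 9 had the highest GFP-BM CON values there, 9.376 and 10.06 FPKM, inside the GFP-BM REPOP ranges of 8.70 to 10.5 and 8.25 to 10.2 FPKM. *Nnt* of mouse 2 lay between 8.25 and 8.75 FPKM over its regions, near mouse 6 with 8.23 to 8.58 FPKM. Thalamus differed: the transplanted groups did not overlap in *Nnt*, and mouse 9 had the lowest GFP-BM CON value there, 7.502 FPKM. Summed markers of engrafted monocyte-derived cells, all 8 listed genes measured, were 12.7, 74.7 and 39.0 FPKM in cortex, hippocampus and thalamus of mouse 9 and 62.0, 118.0 and 112.0 FPKM in those of mouse 2. In cortex these sums were 8.33 to 10.1 FPKM in WT CON, 12.7 to 21.6 FPKM in GFP-BM CON and 62.0 to 101.0 FPKM in GFP-BM REPOP. In hippocampus, where the groups overlapped, they were 10.8 to 24.2, 15.2 to 74.7 and 50.4 to 139.0 FPKM. In thalamus they were 15.2 to 31.8, 39.0 to 51.8 and 112.0 to 195.0 FPKM. Mouse 9, with the highest *Wdfy1* of its group in each region, had the lowest sum of its group in cortex and thalamus and the highest in hippocampus, where the other sums were 67.1, 17.6 and 15.2 FPKM. Summed microglia markers, all 9 measured, ran from 87.1 to 104.0, from 76.8 to 82.2 and from 61.5 to 68.1 FPKM in the same groups. The part of either cell type in the levels of the 3 genes was not tested beyond these values.

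**Figure D4:**
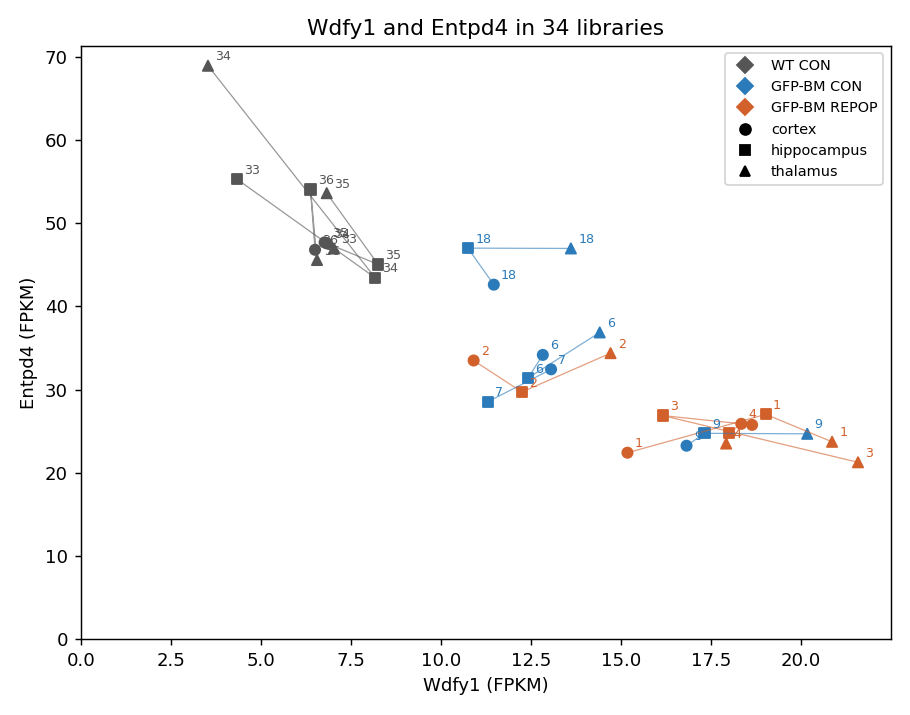
FPKM of *Entpd4* (vertical axis) against *Wdfy1* (horizontal axis) in 34 libraries, with the group as colour, the region as marker shape and lines joining libraries of one mouse, whose number stands beside each point. Mouse 9 of the GFP-BM CON group lies among GFP-BM REPOP mice 1, 3 and 4, and mouse 2 of the GFP-BM REPOP group lies beside GFP-BM CON mice 6 and 7.

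Across all 34 libraries, after the mean of each region was taken out, Pearson's r was 0.83 between *Nnt* and *Wdfy1*, -0.80 between *Nnt* and *Entpd4*, and -0.92 between *Wdfy1* and *Entpd4*. These are descriptions, since libraries share mice and groups and the groups differ. The genes most like *Nnt* were *Lilrb4a* (r = 0.88), *Ms4a7* (0.86) and *Ms4a6b* (0.86), followed by 2 unnamed entries (0.84 and 0.83), and all 3 named genes belong with *Nnt* to the signature drawn from these mice. The genes most like *Wdfy1* were *Ermard* (0.84), *Gabra2* (0.83), *Nnt* (0.83), *Gm3435* (0.82) and *Ms4a6c* (0.82). The genes most like *Entpd4* were its copy *Entpd4b* (1.0), an unnamed entry (0.93) and *Tmem254c*, *Tmem254a* and *Tmem254b* (0.90 each). *Tmem254b* was low in mouse 9 and high for its group in mouse 2, as *Entpd4* was, with 7.35, 13 and 7.62 FPKM in mouse 9 and 17.1, 17.0 and 15.1 FPKM in mouse 2 in cortex, hippocampus and thalamus. In mouse 18 the genes parted: its *Tmem254b* values of 15.1, 16.5 and 14.6 FPKM lay near those of mouse 6 (15.7, 15.7 and 13.6 FPKM).

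In 15 of the 16389 genes, all 23 transplanted libraries lay beyond all 11 WT CON libraries of their regions, on the same side in 3 regions, 9 higher and 6 lower. The smallest gap over the regions was 0.376 for *Wdfy1* and 0.159 for *Nnt* on the log2 scale, and *Entpd4* was not among them. The widest gap, 0.703, was that of *Gabra2*, which encodes a GABA-A receptor subunit. Others among the first 10 were *Tmem181b-ps*, higher, and the microglial gene *Crybb1*, *Lag3*, *Cbx2*, *Adar* and *Chtop*, lower.

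Other genes at which substrains are known to differ gave a mixed picture: 9 of 11 listed genes were in the table and 7 were tested. *Gabra2* rose in GFP-BM CON against WT CON in cortex, from 6.01 ± 2.68 (SD, n = 3) to 20.5 ± 3.59 FPKM (n = 4), by 1.85 ± 0.30 (SE) on the log2 scale. Against WT CON it also rose in GFP-BM REPOP in cortex (1.85 ± 0.30) and in thalamus (3.50 ± 0.48). The list was chosen with earlier results of these data known, so the changes of *Gabra2* are described without a test. *Gabra2* was lowest of WT CON hippocampus in mouse 33 (0.474 FPKM, GC measure 3.41) and of WT CON thalamus in mouse 34 (0.582 FPKM, GC measure 3.65). In GFP-BM CON hippocampus it was 26.2 FPKM in mouse 7, with the lowest GC measure (0.71), and 5.95 FPKM in mouse 9, with the highest (2.09). The part of base composition in its changes was not tested. Among the other tested genes, *Ide*, *Fgfbp3*, *Cyfip2*, *Chl1* and *Snap29* passed in none of 9 comparisons by limma-trend. *Ide*, the insulin-degrading enzyme, had log2 differences of -0.63, -0.78 and -0.79 after repopulation against transplant alone in cortex, hippocampus and thalamus, with adjusted p-values of 1.0, 0.30 and 1.0. *Fgfbp3* had 81.2% of its within-group variance between mice. *Crb1* and *Dock2* did not pass the filter, and *Nlrp12* and *Mmrn1* were not analysed here.

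Few genes of the pathways around the 3 members passed the test. Of 17 tested genes of mitochondrial NADPH and peroxide handling, such as *Idh2*, limma-trend called 0 in each of 9 comparisons, with between 0 and 3 at an unadjusted p under 0.05. Of 16 tested genes of the WDFY family, the endosome and TLR adaptors, it also called 0, with 9 at an unadjusted p under 0.05 in hippocampus of GFP-BM CON against WT CON. Of 14 tested genes of nucleoside diphosphatases and Golgi UDP-sugar handling, 1 was *Entpd4b*, whose change of -1.07 ± 0.21 in thalamus of GFP-BM REPOP against WT CON restates that of *Entpd4* and is given without a test. Of the other 13, limma-trend called 0, with between 0 and 5 at an unadjusted p under 0.05 per comparison. Over all tested genes, limma-trend called 0.32% (cortex), 0.0% (hippocampus) and 0.0% (thalamus) in GFP-BM CON against WT CON, and 0.734%, 0.0136% and 0.836% in GFP-BM REPOP against WT CON. Where it called 0, 3517 hippocampus and 3045 thalamus genes had an unadjusted p under 0.05, and voom on recovered reads called 0 as well.

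The 3 nearest measured genes on each side of each member gave 18 neighbours, of which 17 were tested, *Entpd4b* included. Of the other 16, limma-trend called 0 in 9 comparisons, with between 0 and 6 at an unadjusted p under 0.05 per comparison. The largest differences of GFP-BM REPOP from WT CON beside *Entpd4* had its sign. *Gm16677* had log2 differences of -1.95 ± 0.60 (SE), -0.45 ± 0.45 and -2.62 ± 0.92 in cortex, hippocampus and thalamus. *Gm21451* had -1.80 ± 0.73, -1.52 ± 0.42 and -1.39 ± 0.44, and *Gm16867* had -1.31 ± 0.36, -0.60 ± 0.25 and -0.77 ± 0.29. Adjusted p-values of these 9 differences in limma-trend ran from 0.12 to 0.72. Beside *Wdfy1*, *Mrpl44* had -0.43 ± 0.11 in thalamus (adjusted p = 0.079).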

How the data were processed

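The authors aligned paired reads with STAR to mm10, counted them per Entrez gene with featureCounts and deposited FPKM values, per the labels and methods. FPKM steps gave whole reads for 100.0% of values within 0.01 read, 17085018 to 26010509 per library. The 3 members had 347 to 4425 reads per library (counting error 1.5% to 5.37%). Values were analysed as log2(FPKM + 0.1) for 14710 genes at an FPKM of at least 1 in at least 3 libraries, so fold changes of low genes are understated. Groups were compared by limma-trend within each region (R 4.3.3, limma 3.58.1), and regions in one fit with the mouse as random block (correlation -0.0384). P-values were two-sided. Permutations and summaries were run in Python 3.11.15 (pandas 2.3.3, numpy 2.4.6, scipy 1.17.1), and plots in matplotlib 3.10.9. Tests were checked on simulated data. Libraries of a group came from different mice by their numbers. Agreement in transplanted mice only, region differences with the mouse as a fixed block or by exact sign flips over mice, and shares without each GFP-BM CON mouse were alternatives chosen after seeing the data. The members and lists were chosen with earlier results of these data known. Genes named besides the members were the 5 likest, 3 neighbours on each side, copies, listed genes that passed or came from the substrain list, and the 10 widest-separated; *Ide*, *Fgfbp3*, *Idh2*, *Mrpl44*, *Gm16677*, *Gm21451* and *Gm16867* were picked within these after their values were seen. Some genes that this rule names are not reported here. Sequences came from GENCODE transcripts of GRCm38. Alternatives were the pseudocount, filter, normalization, samples in the fit, variance model, replicate block, voom, a GC and length correction, exact permutation and leaving out each library or mouse.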

Additional observations from a re-analysis of the deposited data

Results flagged for a closer look

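The lowest or highest library of a group stood apart from the other 3 in 3 of 28 groups examined, where chance gives about 1 in 20. *Nnt* in the hippocampus of GFP-BM REPOP mouse 2 was 8.25 FPKM, below 10.04, 10.18 and 10.11 FPKM. *Entpd4b* in the thalamus of the same mouse was 46.8 FPKM, the highest of its group. *Wdfy1* in the thalamus of WT CON mouse 34 was 3.53 FPKM, below 6.56, 6.83 and 7.03 FPKM, in the library with the highest GC measure of all (3.65).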

How the results depend on the processing

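Differences from WT CON kept their direction for all 3 genes under every alternative run. After the GC and length correction, the GFP-BM CON change of *Wdfy1* was 0.94, 0.67 and 1.12 in the cortex, hippocampus and thalamus, and that of *Entpd4* -0.52, -0.44 and -0.43. The corrected change of *Nnt* was 0.62, 0.68 and 0.62 in the same regions. The repopulation difference, GFP-BM REPOP minus GFP-BM CON, was not called in any of 210 recomputed values, with a lowest adjusted p of 0.32. With the replicate block, where numbers pair no animals, its adjusted p ran from 0.65 to 1.0, and the block changed no call. The exact permutation test could reach no p below 0.029.

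Quantile normalization reversed uncalled region differences: hippocampus minus cortex in WT CON to -0.01 (*Entpd4*), 0.19 (*Nnt*) and 0.16 (*Wdfy1*), the same in transplanted mice to 0.09 (*Nnt*) and 0.07 (*Wdfy1*), and thalamus minus cortex in WT CON to 0.03 (*Nnt*). With the mouse as a fixed block, chosen after seeing the data, hippocampus minus cortex of *Wdfy1* in WT CON was 0.02. Quantile normalization moved the r of *Nnt* between hippocampus and thalamus to -0.04. In transplanted mice only, chosen after seeing the data, the r of *Nnt* between cortex and hippocampus was 0.85 (exact permutation, adjusted p = 0.065).

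Leaving out 1 mouse at a time, r ran from 0.78 to 0.93 for cortex and hippocampus (*Nnt*), and 0.65 to 0.86 for cortex and hippocampus and from -0.17 to 0.60 for hippocampus and thalamus (*Wdfy1*), and 0.72 to 0.93 for cortex and thalamus (*Entpd4*). Leaving out mouse 1 brought *Wdfy1* (cortex and hippocampus, 0.85) and *Entpd4* (cortex and thalamus, 0.88) past the threshold of the exact permutation test. Leaving out 1 library at a time changed the sign of these uncalled differences: the repopulation difference, hippocampus minus cortex, -0.10 to 0.24 (*Entpd4*) and -0.06 to 0.08 (*Nnt*) and -0.03 to 0.30 (*Wdfy1*), the repopulation difference, thalamus minus cortex, -0.46 to 0.05 (*Entpd4*) and -0.15 to 0.22 (*Wdfy1*), thalamus minus cortex, transplanted, -0.10 to 0.16 (*Entpd4*), thalamus minus hippocampus, WT CON, -0.02 to 0.18 (*Entpd4*) and -0.18 to 0.01 (*Nnt*) and -0.38 to 0.04 (*Wdfy1*), thalamus minus hippocampus, transplanted, -0.10 to 0.16 (*Entpd4*) and -0.07 to 0.01 (*Nnt*), hippocampus minus cortex, WT CON, -0.11 to 0.07 (*Nnt*) and -0.14 to 0.17 (*Wdfy1*), the repopulation difference, thalamus minus hippocampus, -0.27 to 0.08 (*Wdfy1*), hippocampus minus cortex, transplanted, -0.09 to 0.07 (*Wdfy1*), thalamus minus cortex, WT CON, -0.30 to 0.01 (*Wdfy1*). The cause was not tested.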
